A study of Mus musculus with 12 samples.

Results

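The 51 genes described here encode the proteins that copy the genome in S phase and supply its building blocks, from the origin recognition complex to the cyclins and E2F factors that start the phase. They were taken by name from the deposited table of 28689 genes, and 51 of 51 were found in it. RNA sequencing had been done on mouse lung endothelial cells (MLECs) of control mice (CTR, 6 libraries) and of endothelial Sp1/Sp3 knockout mice (dKO, 6 libraries). The dKO mice were VE-CAD-CreERT2+/Sp1 fl/fl/Sp3 fl/fl, in which tamoxifen turns on a Cre recombinase driven by the VE-cadherin promoter. The CTR mice, labelled WT, were littermates with the same floxed alleles and no Cre, and both groups had received tamoxifen. The cells were selected with CD31 beads and, after they had grown to confluency in culture, with ICAM2 beads, so cells without an active VE-cadherin promoter that survive both steps keep Sp1 and Sp3. The sources used here do not give how many mice stand behind a library. P-values therefore measure the spread between libraries, which may be technical in part.

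Replication begins in G1, when the origin recognition complex (ORC), Cdc6 and Cdt1 load the ring-shaped MCM2-7 helicase onto DNA. In S phase Cdc45 and the GINS complex switch the helicase on, polymerases alpha, delta and epsilon copy the strands behind it, and the sliding clamp PCNA, its loader RFC and the single-strand binding protein RPA keep them in place. Many of these genes are transcribed in late G1 under E2F factors, so cells that divide carry more of their mRNA than resting cells. The promoters of several of them also hold GC boxes, the DNA element that Sp1 and Sp3 bind.

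Values are FPKM, fragments per kilobase of transcript, scaled to the total of the library. The libraries held between 15523054 and 17938286 fragments, and a tested member rested on between 44 and 4214 fragments in a library. Sp1 lay between 19.4 and 23.7 FPKM in CTR and between 8.42 and 12.1 FPKM in dKO libraries (log2 fold change -0.95 ± 0.09 SE, adjusted p = 5.7e-06), while Sp3 differed by -0.14 ± 0.07 (adjusted p = 0.090). These values are RNA of the whole gene. For protein, the paper reports less Sp1 and Sp3 in the aortic endothelium of dKO mice by immunofluorescence. The endothelial genes Pecam1 and Cdh5 were present in every library, at 26.1 FPKM or more and 66.8 FPKM or more. Markers of other cells were present as well, and markers of several cell types, endothelial ones included, moved with the groups: summed macrophage markers lay between 712 and 1245 FPKM in CTR and between 2376 and 5276 FPKM in dKO, and summed fibroblast markers between 2132 and 2710 FPKM in CTR and between 826 and 1656 FPKM in dKO. All 10 macrophage markers passed the test as higher in dKO, and of 7 fibroblast markers tested 4 were lower and 1 higher. Of 11 endothelial markers 10 were higher in dKO, with sums of 213 to 333 FPKM in CTR and 392 to 535 FPKM in dKO, and of 6 mesothelial markers 5 were higher, with sums of 28.8 to 38.6 FPKM and 66.3 to 146 FPKM. The part of these cells in the values below was not tested. In bulk RNA, fewer cells in S phase and less mRNA per cell cannot be told apart.

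Of the 51 genes, 49 reached 1 FPKM in 6 or more of the 12 libraries and were tested with limma on log2(FPKM + 1). A fold change on this scale understates the change of low genes. Between dKO and CTR, 11 of the 49 changed at an adjusted p under 0.05 (22.4%), beside 53.1% of all 12467 genes tested. The 10 members that fell were Rpa3, Pold1, Pold2, Pola1, Tyms, Rfc4, Orc5, Gins4, Orc4 and Rfc1 (20.4% of the members, beside 32.6% of all genes). The 1 that rose was E2f1 (2.04% of the members, beside 20.4% of all genes). With median-of-ratios scaling 24.6% of all genes were called lower and 25.5% higher, and 7 members were lower and 1 higher. None of the members passed the study's second threshold, an absolute log2 fold change over 1.5, which 1.98% of all genes passed together with the first. That count was also 0 at an unadjusted p under 0.05 and with limma-voom on recovered fragments. The study also words this threshold as 1.5-fold, and read so it was passed by Rpa3, Pold1 and Pold2, 3 of the 49, beside 17.9% of all genes. In 3 members, Orc5, Pold2 and Rpa3, all dKO libraries lay below all CTR libraries (16.1% of all genes), and in none did all lie above (11.3% of all genes).

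The 38 members that did not pass the test were not thereby shown to be equal. Their 95% confidence intervals reached between 0.227 and 0.750 to either side on the log2 scale (median 0.437), and 21 of the 38 intervals included a log2 fold change of -0.5. Over the 49 members the log2 fold change was below 0 in 37 (75.5%, beside 59.8% of all genes) and above 0 in 12, with a median of -0.23 beside -0.10 for all genes (-0.15 beside -0.02 with median-of-ratios scaling). The size of the change was like that of other genes, with a median absolute log2 fold change of 0.254 beside 0.275. Single libraries bore on these counts. Without CTR 4 the test called 17 members, 16 lower and 1 higher. Without CTR 1 the median log2 fold change of the members was -0.06. The share of all genes called without a library is not given here, so the count without CTR 4 is not a result about the members.

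**Figure D1:**
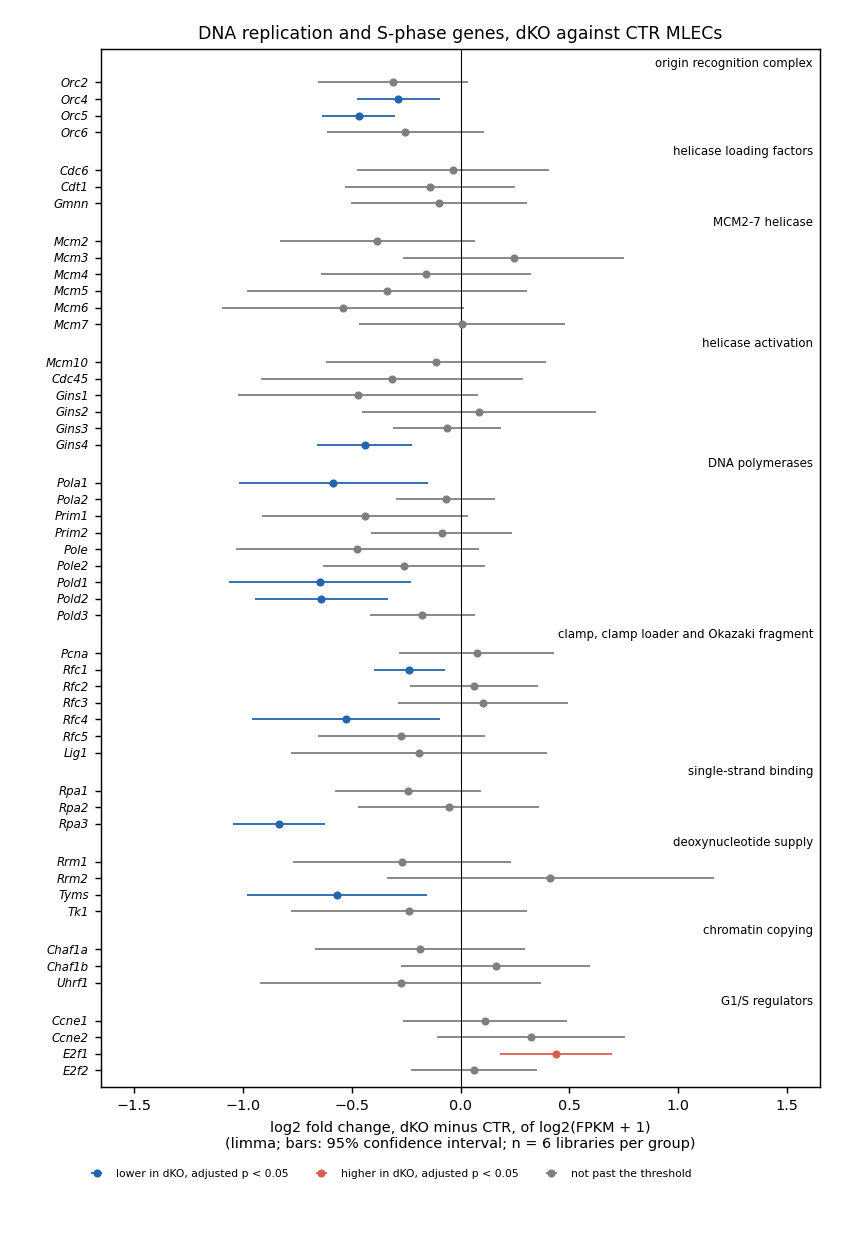
Log2 fold change (x axis, dKO minus CTR on the log2(FPKM + 1) scale) of the 49 tested genes, grouped by role, with 95% confidence intervals from 6 libraries per group. The 10 genes that fell (blue) lie in 6 roles, all 9 polymerase genes have values below 0 (Pola2 was at 0.012 with limma-voom and 0.011 with median-of-ratios scaling), and all 4 G1/S regulators lie above 0, E2f1 (red) being the 1 that passed the test.

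The members varied more between libraries of one group than most genes did. The within-group SD of log2(FPKM + 1) had a median of 0.371 over the 49 members and of 0.175 over all genes, and in 38 members it was above the upper quartile of all genes (0.257). A wide spread was not particular to the members. In the lists counted below, the median SD was 0.428 for mitotic markers and 0.314 for other replication factors. It was 0.324 for other nucleotide and chromatin factors, and 0.234 for G1 cyclins, kinases and phosphatases. The members that passed the test had a median SD of 0.220 and those that did not one of 0.389. A small spread makes passing easier, so this difference follows in part from the test itself. The spread was unequal between the groups: CTR libraries spanned a wider range than dKO libraries in 47 of 49 members, with a median span of 1.29 log2 units in CTR and 0.605 in dKO, whereas over all genes both spans were close (0.444 and 0.450). For 28 members every dKO library lay inside the range of the CTR libraries. The share of all genes with this overlap was not computed, so the count is not a result about the members.

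The same libraries stood at the ends for most members. CTR 1 was the highest CTR library in 45 members and CTR 4 the lowest in 37, while dKO 1 was the highest dKO library in 42 and dKO 4 the lowest in 30. The median deviation of the members from the CTR mean ran from -0.57 in CTR 4 to 0.68 in CTR 1, and from -0.42 in dKO 4 to 0.12 in dKO 1. Mitotic markers, genes of cells that divide, took their lowest and highest median in the same 4 libraries, with -0.75 in CTR 4, 0.76 in CTR 1, -1.14 in dKO 4 and -0.69 in dKO 1. The median deviation of fibroblast markers stood the other way in the same 4 libraries. It was lowest in CTR 1 (-0.36) and dKO 1 (-1.29) and highest in CTR 4 (0.36) and dKO 4 (-0.44) within their groups. Lung epithelial markers summed to 88.2 FPKM in CTR 1 and to 500 FPKM in CTR 4, the lowest and highest of the CTR libraries, and to between 153 and 361 FPKM in dKO. Whether fibroblast or lung epithelial markers bear on the members was not tested.

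**Figure D2:**
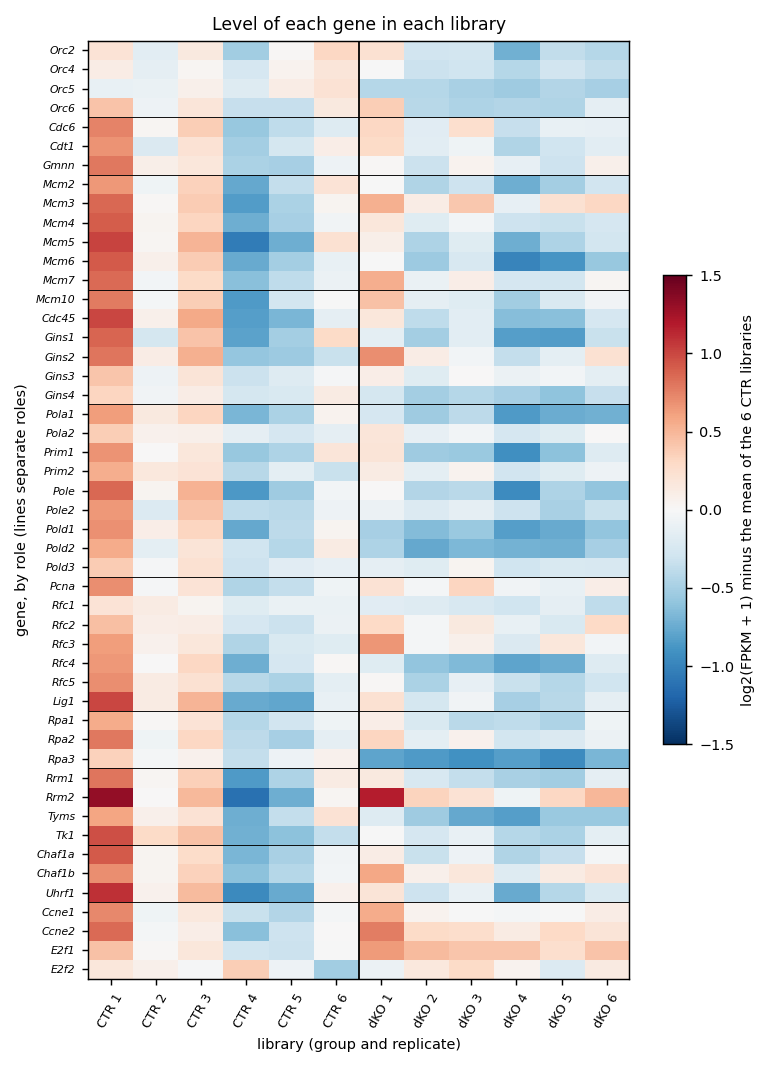
Log2(FPKM + 1) of each tested gene (rows, grouped by role) in each of the 12 libraries (columns), as the difference from the mean of the 6 CTR libraries; the scale runs from -1.5 to 1.5. Most rows are highest in CTR 1 and low in CTR 4 and CTR 5, whereas Rpa3 and Pold2 are low in all dKO libraries and E2f1 is high in all of them.

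Promoters are shown for the tested members with the lowest log2 fold changes, Rpa3 and Pold1, and for Rrm2, with the second highest, because the deleted factors bind GC boxes. The window of E2f1, the highest, is not shown: 290 of its 300 bases are coding and its start lies 294 bases from the nearest annotated transcript start. Each is the RefSeq window (table of build GRCm38.p6) from 250 bases before to 50 bases after the start of transcription, written 5′ to 3′ on the gene's strand. Each was placed on GRCm39, the build of the files, by its 1 exact match. GC boxes (GGGCGG or its complement CCGCCC) and E2F elements are in capitals.
Rpa3, chr6:8259092-8259391, minus strand: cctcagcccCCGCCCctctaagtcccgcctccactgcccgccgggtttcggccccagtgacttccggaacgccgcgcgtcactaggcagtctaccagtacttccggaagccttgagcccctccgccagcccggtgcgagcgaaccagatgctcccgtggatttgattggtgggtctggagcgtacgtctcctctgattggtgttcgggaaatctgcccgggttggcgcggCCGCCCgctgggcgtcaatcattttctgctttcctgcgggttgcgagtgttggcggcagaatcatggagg
Pold1, chr7:44198190-44198489, minus strand: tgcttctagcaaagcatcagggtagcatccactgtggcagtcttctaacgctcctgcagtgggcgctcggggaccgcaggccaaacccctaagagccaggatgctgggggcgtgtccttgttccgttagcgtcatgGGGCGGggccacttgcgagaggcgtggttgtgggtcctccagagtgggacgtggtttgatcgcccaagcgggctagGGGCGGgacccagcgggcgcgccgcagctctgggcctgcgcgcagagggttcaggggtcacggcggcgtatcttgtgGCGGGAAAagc
Rrm2, chr12:24758003-24758302, plus strand: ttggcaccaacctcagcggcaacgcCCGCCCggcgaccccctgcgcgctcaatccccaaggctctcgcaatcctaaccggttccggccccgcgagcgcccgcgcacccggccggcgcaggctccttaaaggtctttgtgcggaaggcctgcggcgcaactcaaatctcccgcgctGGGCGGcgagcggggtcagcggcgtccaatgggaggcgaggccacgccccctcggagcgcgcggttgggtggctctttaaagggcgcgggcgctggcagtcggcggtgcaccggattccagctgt
These windows hold 2 GC boxes each. Their starts lie 1, 3 and 12 bases from a GENCODE transcript start of Rpa3, Pold1 and Rrm2, and that of Rrm2 lies 442 bases inside the gene as annotated. The capitals at the 3′ end of the Pold1 window are an E2F element.

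The table held 52 promoter windows for 42 of the 51 members, 46 of them with a start within 50 bases of an annotated transcript start and 10 with some coding bases. A GC box was in 73.1% of them, in 63.2% of the windows of all tested genes and in 35.7% of all 32851 windows. Among members that fell it was in 11 of 12 windows (9 genes). Among members that did not pass the test it was in 25 of 36 (30 genes). Some genes have several windows, Orc4 and Pold2 among those that fell, so the windows are not independent. The median share of G and C was 65.0% in the windows of members that fell. It was 58.0% for members that did not pass and 61.0% for all tested genes. The part of this share in the counts of GC boxes was not tested. An E2F element, searched on both strands as TTTCCCGC, TTTGGCGC, TTTCGCGC or TTTGCCGC, was in 30.8% of the members' windows, in 4.01% of those of tested genes and in 2.26% of all windows. It was in 2 of the 12 windows of members that fell and in 13 of the 36 of members that did not pass. CCAAT on either strand was in 57.7% of the members' windows and 37.3% of those of tested genes, and the cell-cycle element TTTGAA or TTCGAA in 15.4% and 13.8%. These are matches of letters and not measured binding.

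The origin recognition complex marks the places where replication starts. Of the 4 tested members among its subunits 2 fell and none rose, beside 32.6% of all genes called lower and 20.4% higher. Orc3, a subunit counted with the other replication factors below and named after its values were seen, also fell, from 9.86 to 11.2 FPKM in CTR to 6.36 to 7.58 FPKM in dKO, without overlap (-0.54 ± 0.06, adjusted p = 9.8e-06). Orc5 lay between 2.77 and 4.03 FPKM in CTR (median 3.29) and between 1.99 and 2.22 FPKM in dKO (median 2.14). All dKO libraries were below all CTR libraries, and the log2 fold change was -0.47 ± 0.08 (SE, n = 6 per group, adjusted p = 0.00028). Orc4 lay between 5.58 and 7.86 FPKM in CTR (median 7.05) and between 4.82 and 6.79 FPKM in dKO (median 5.28), with 1 dKO library, dKO 1, well inside the CTR range. Its log2 fold change was -0.29 ± 0.09 (adjusted p = 0.017, or 0.051 with median-of-ratios scaling). Exons of Acvr2a, on the other strand, share 22.2% of the exon bases of Orc4, and the sources used here do not give whether strand was used in counting. Orc6 had the smallest difference of the 4, between 7.91 and 14.3 FPKM in CTR (median 10.7) and between 7.24 and 13.6 FPKM in dKO (median 7.44), with overlapping groups and a log2 fold change of -0.25 ± 0.17 (adjusted p = 0.22). Without dKO 1, the highest dKO library, Orc6 and Orc2 passed the test (adjusted p = 0.035 and 0.026). Orc1, a subunit whose level changes through the cell cycle, was under the filter, at 0.724 to 1.42 FPKM in CTR (median 0.936) and 0.385 to 1.22 FPKM in dKO (median 0.743).

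None of the 3 loading factors passed the test, at an adjusted or an unadjusted p under 0.05 or with limma-voom. Of all genes 53.1% passed at an adjusted p under 0.05. Cdc6, the ATPase that joins ORC to recruit the helicase, lay between 0.898 and 3.71 FPKM in CTR (median 1.66) and between 1.20 and 2.49 FPKM in dKO (median 1.59). All dKO libraries were inside the CTR range, and the log2 fold change of -0.03 ± 0.20 (adjusted p = 0.90) had an interval from -0.48 to 0.41. Cdt1, the partner of Cdc6, and its inhibitor geminin (Gmnn) had log2 fold changes of -0.14 and -0.10. The sign of Cdc6 and Gmnn turned without CTR 1.

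The MCM2-7 helicase unwinds the DNA, and none of its 6 subunits passed the test at an adjusted or unadjusted p under 0.05 or with limma-voom. The share of all genes that passed at an adjusted p under 0.05 was 53.1%. Mcm7 had the smallest difference of all members, between 5.60 and 17.4 FPKM in CTR (median 8.76) and between 7.44 and 13.9 FPKM in dKO (median 8.98), for a log2 fold change of 0.01 ± 0.22 (adjusted p = 0.98, interval -0.47 to 0.48). Mcm6 and Mcm3, chosen after their values were seen, stood at the ends of the complex. Mcm6 lay between 7.93 and 27.5 FPKM in CTR (median 13.9) and between 6.57 and 14.0 FPKM in dKO (median 9.22), with a log2 fold change of -0.54 ± 0.26 (adjusted p = 0.093). Mcm3 lay between 5.87 and 21.4 FPKM in CTR (median 11.6) and between 10.3 and 16.8 FPKM in dKO (median 13.8), with a log2 fold change of 0.24 ± 0.23 (adjusted p = 0.40). CTR 4 held the lowest CTR value of both, and without it Mcm6 and Mcm2 passed the test as lower (adjusted p = 0.028 and 0.019).

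The MCM subunits took their highest and lowest values in much the same libraries, and their ratios within a library had narrower ranges. The ratio of Mcm3 to Mcm6 was 0.741 to 0.903 in CTR (median 0.794) and 1.20 to 1.86 in dKO (median 1.44), with no overlap. Mcm3 to Mcm5 was 1.11 to 1.59 in CTR and 1.77 to 2.18 in dKO, and Mcm2 to Mcm3 was 0.644 to 0.842 in CTR and 0.419 to 0.502 in dKO. In CTR libraries the median levels of the subunits lay within 1.61 times of each other, with Mcm7 lowest and Mcm4 highest, and in dKO libraries within 2.21 times, with Mcm2 lowest and Mcm3 highest. Ratios were looked at after the values were seen and have no test. In 7 of the 15 MCM pairs, and in 13 of all 46 subunit pairs of the complexes and enzymes compared, the ranges of the groups did not overlap. Of single genes 16.1% did not overlap as lower and 11.3% as higher, and no share was computed for ratios of other genes, so these counts are not a result about the members. The pairs share libraries and subunits and are not independent.

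**Figure D3:**
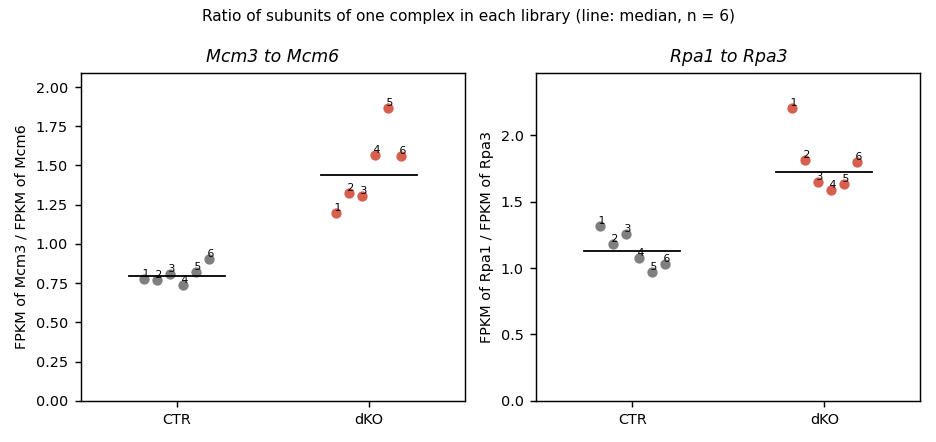
Ratio of the FPKM of Mcm3 to Mcm6 (left y axis) and of Rpa1 to Rpa3 (right y axis) in each library, with digits for the replicate and a line at the median of 6. Both ratios are higher in all dKO libraries than in all CTR libraries, 1.20 to 1.86 against 0.741 to 0.903 and 1.59 to 2.2 against 0.969 to 1.31.

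Of the 6 genes that turn the loaded helicase into an active one, 1 fell, beside 32.6% of all genes called lower. Gins4, a subunit of the GINS ring, lay between 16.6 and 25.4 FPKM in CTR (median 20.7) and between 12.9 and 16.7 FPKM in dKO (median 14.4). Only dKO 1, at the top of its group, reached the lowest CTR library, and the log2 fold change was -0.44 ± 0.10 (adjusted p = 0.0029). Gins3, of the same ring, lay between 1.14 and 2.58 FPKM in CTR (median 1.60) and between 1.36 and 1.88 FPKM in dKO (median 1.56), with a log2 fold change of -0.06 ± 0.12 (adjusted p = 0.67). Gins4 was the most abundant subunit, with a CTR median 12.9 times that of Gins3. Gins1 (-0.47), Cdc45 (-0.31) and Mcm10 (-0.11) had log2 fold changes below 0, and Gins2 (0.08) above. Gins1 passed the test without CTR 4 (adjusted p = 0.036). Exons of Gse1, on the other strand, share 67.3% of the exon bases of Gins2.

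Of the 9 polymerase genes 3 fell, a share near the 32.6% of all genes called lower. All 9 log2 fold changes were below 0 (median -0.44), as were 59.8% of those of all genes, although Pola2 was at 0.012 with limma-voom and 0.011 with median-of-ratios scaling. Pold1, the catalytic subunit of polymerase delta, lay between 4.54 and 14.1 FPKM in CTR (median 8.89) and between 4.31 and 5.62 FPKM in dKO (median 5.11). The groups overlapped at CTR 4, the lowest CTR library, and the log2 fold change was -0.64 ± 0.19 (adjusted p = 0.014). Pold2, its accessory subunit, lay between 12.6 and 25.8 FPKM in CTR (median 17.2) and between 9.71 and 12.3 FPKM in dKO (median 10.3), without overlap, for a log2 fold change of -0.64 ± 0.14 (adjusted p = 0.0023). Pold3, the third member of this enzyme measured, had a log2 fold change of -0.18 ± 0.11 (adjusted p = 0.20).

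Pola1, the catalytic subunit of polymerase alpha that extends the primer, lay between 2.1 and 6.71 FPKM in CTR (median 4.35) and between 1.76 and 3.18 FPKM in dKO (median 2.22). Its log2 fold change was -0.58 ± 0.20 (adjusted p = 0.026). The adjusted p rose to between 0.051 and 0.060 without CTR 1, CTR 2, CTR 3, dKO 4, dKO 5 or dKO 6. Pola1 also did not pass with no filter. Pola2, the second subunit of this enzyme, had the smallest difference of the group, between 6.25 and 10.2 FPKM in CTR (median 7.44) and between 6.25 and 8.75 FPKM in dKO (median 7.13), with a log2 fold change of -0.07 ± 0.11 (adjusted p = 0.61). The primase subunits Prim1 and Prim2 had log2 fold changes of -0.44 (adjusted p = 0.11) and -0.09 (adjusted p = 0.64), and Pole and Pole2 of polymerase epsilon -0.47 (adjusted p = 0.14) and -0.26 (adjusted p = 0.22). Prim1 passed the test without CTR 4 (adjusted p = 0.042) and without dKO 1 (adjusted p = 0.035), and Pole without CTR 4 (adjusted p = 0.030).

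Among the clamp, its loader and the enzymes that join Okazaki fragments, 2 of 7 tested genes fell, beside 32.6% of all genes called lower. Rfc4, a small subunit of the loader, lay between 4.44 and 13.2 FPKM in CTR (median 8.15) and between 4.22 and 7.01 FPKM in dKO (median 4.87), with a log2 fold change of -0.53 ± 0.20 (adjusted p = 0.040). Exons of Eif4a2, on the other strand, share 16.5% of its exon bases. This call was lost more often than any other of the 11. The adjusted p lay between 0.063 and 0.087 without any 1 of CTR 1, CTR 2, CTR 3, CTR 6, dKO 2, dKO 3, dKO 4 or dKO 5, and was 0.080 with limma-voom. With median-of-ratios scaling and with no filter the call was lost as well. Rfc1, the large subunit, lay between 11.8 and 15.8 FPKM in CTR (median 13.2) and between 10.1 and 12.3 FPKM in dKO (median 11.5), with a log2 fold change of -0.23 ± 0.08 (adjusted p = 0.020). It did not pass with median-of-ratios scaling (adjusted p = 0.11) or limma-voom (adjusted p = 0.11). Rfc2 had the smallest difference, between 3.99 and 7.53 FPKM in CTR (median 5.25) and between 4.32 and 6.65 FPKM in dKO (median 5.47), with a log2 fold change of 0.06 ± 0.14 (adjusted p = 0.72). Exons of Lat2, on the other strand, share 24.3% of its exon bases.

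Pcna, the sliding clamp, was the most abundant member, between 29.2 and 65.8 FPKM in CTR (median 39.1) and between 37.3 and 50.5 FPKM in dKO (median 41.4). Every dKO library was inside the CTR range, and the log2 fold change was 0.07 ± 0.17 (adjusted p = 0.72, interval -0.28 to 0.43). Pcna-ps2, a near-identical copy elsewhere in the genome, was at 0.638 to 2.15 FPKM. Rfc3, Rfc5 and the ligase Lig1 had log2 fold changes of 0.10, -0.27 and -0.19. Exons of Wsb2, on the other strand and at 13.6 to 29.5 FPKM, share 41.4% of the exon bases of Rfc5. Fen1, the nuclease that trims Okazaki fragments, was under the filter, with 2 to 23 fragments in a library, at 0.0946 to 0.249 FPKM in CTR (median 0.182) and 0.0472 to 0.612 FPKM in dKO (median 0.120). Exons of Gm10143, a long noncoding RNA on the other strand, share 59.0% of its exon bases and were at 0 to 0.120 FPKM, so the level of Fen1 is uncertain.

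Rpa3, the smallest subunit of RPA, had the lowest log2 fold change of all members. It lay between 13.0 and 21.7 FPKM in CTR (median 17.1) and between 8.29 and 10.2 FPKM in dKO (median 9.0). All dKO libraries were below all CTR libraries, and the log2 fold change was -0.84 ± 0.10 (adjusted p = 2.3e-05). Its partners in the complex did not pass the test: Rpa1, the large subunit, had a log2 fold change of -0.24 ± 0.15 (adjusted p = 0.21), and Rpa2 lay between 2.64 and 7.84 FPKM in CTR (median 3.78) and between 3.22 and 5.42 FPKM in dKO (median 3.75), for -0.06 ± 0.19 (adjusted p = 0.83). The ratio of Rpa1 to Rpa3 was 0.969 to 1.31 in CTR and 1.59 to 2.2 in dKO, without overlap.

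**Figure D4:**
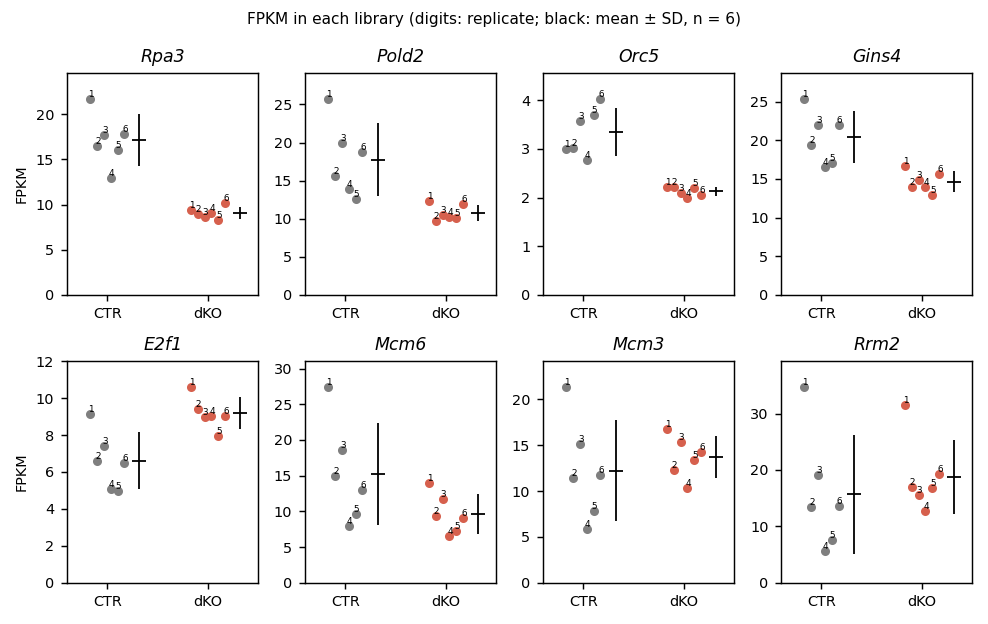
FPKM (y axes, from 0) of 8 genes in each of the 6 CTR (grey) and 6 dKO (red) libraries, with digits for the replicate and the mean ± SD in black. Rpa3, Pold2 and Orc5 do not overlap between groups, E2f1 is higher in dKO with CTR 1 alone inside the dKO range, and Mcm6, Mcm3 and Rrm2 overlap widely with CTR 1 at the top.

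Of the 4 genes that supply deoxynucleotides, 1 fell, beside 32.6% of all genes called lower. Tyms, which makes thymidylate, lay between 2.31 and 7.29 FPKM in CTR (median 5.11) and between 2.12 and 3.82 FPKM in dKO (median 2.77). The log2 fold change was -0.57 ± 0.19 (adjusted p = 0.024, and 0.052 without CTR 3 and 0.051 without dKO 4). Tyms also did not pass with no filter. Tk1, the thymidine kinase of the salvage route, had the smallest difference, between 2.14 and 9.04 FPKM in CTR (median 4.16) and between 2.7 and 4.14 FPKM in dKO (median 3.49), with a log2 fold change of -0.24 ± 0.25 (adjusted p = 0.44). Rrm1 and Rrm2, the large and small subunits of ribonucleotide reductase, had log2 fold changes of -0.27 (adjusted p = 0.35) and 0.41 (adjusted p = 0.33). Rrm2 lay between 5.62 and 34.8 FPKM in CTR (median 13.5) and between 12.7 and 31.5 FPKM in dKO (median 16.9), with CTR 1 and dKO 1 far above the rest of their groups and the widest spread of all members (SD 0.682 on the log2 scale). Exons of Gm59512, on the other strand, share 43.3% of its exon bases.

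None of the 3 chromatin genes passed the test, at an adjusted or an unadjusted p under 0.05 or with limma-voom. At an adjusted p under 0.05, 53.1% of all genes passed. Chaf1b, a subunit of the histone chaperone CAF-1, lay between 1.14 and 4.34 FPKM in CTR (median 2.29) and between 1.88 and 3.92 FPKM in dKO (median 2.64), with a log2 fold change of 0.16 ± 0.20 (adjusted p = 0.52). Its partner Chaf1a had a log2 fold change of -0.19 (adjusted p = 0.50), and the ratio of Chaf1a to Chaf1b was 2.61 to 3.31 in CTR and 1.88 to 2.46 in dKO. Exons of Ubxn6, on the other strand, share 51% of the exon bases of Chaf1a. Uhrf1, which carries DNA methylation over to the new strand, had a log2 fold change of -0.28 (adjusted p = 0.45).

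Of the 4 G1/S regulators 1 rose, beside 20.4% of all genes called higher, and the other three, with log2 fold changes above 0, did not pass the test. E2f1, a transcription factor that drives the genes of S phase, lay between 4.98 and 9.13 FPKM in CTR (median 6.52) and between 7.95 and 10.6 FPKM in dKO (median 9.03). CTR 1 was the only CTR library inside the dKO range, and the log2 fold change was 0.44 ± 0.12 (adjusted p = 0.0079). E2f2, of the same family, lay between 0.854 and 2.42 FPKM in CTR (median 1.71) and between 1.31 and 2.25 FPKM in dKO (median 1.84), with a log2 fold change of 0.06 ± 0.13 (adjusted p = 0.72) that was -0.04 without CTR 6. Ccne1 and Ccne2, the E cyclins that activate Cdk2, had log2 fold changes of 0.11 (adjusted p = 0.60) and 0.32 (adjusted p = 0.19), and Ccne2 passed the test without CTR 1 (0.49, adjusted p = 0.015).

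**Figure D5:**
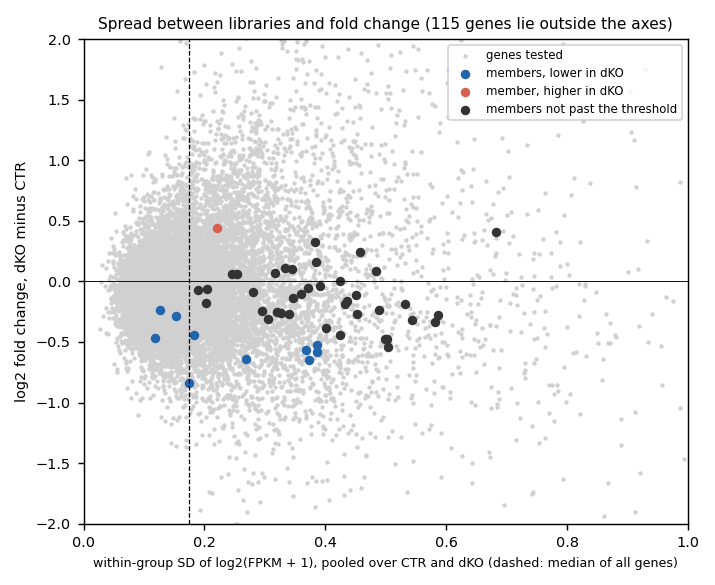
Log2 fold change (y axis, dKO minus CTR) against the within-group SD of log2(FPKM + 1) (x axis) for all tested genes (light grey, 115 of them outside the axes) and the 49 members; the dashed line is the median SD of all genes, 0.175. Of the 49 members 46 lie to the right of it, among them all that did not pass the test (black) and most that did. Orc5, Orc4 and Rfc1, which fell, lie to its left.

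Other genes of the pathway were counted from fixed lists, to be read beside the 32.6% of all genes called lower and the 20.4% called higher. Of 25 other replication factors tested 14 fell and none rose, with a median log2 fold change of -0.28 beside -0.23 for the members. The largest falls were in Recql4, a helicase of origin firing (-1.62 ± 0.24, adjusted p = 0.00013), and Mtbp, the partner of Treslin in helicase activation (-1.13 ± 0.15, adjusted p = 6.6e-05). Of 14 other nucleotide and chromatin factors 6 fell and 1 rose. Dut, the dUTPase, fell by 0.81 (adjusted p = 0.0019), Umps of pyrimidine synthesis fell by 0.75 (adjusted p = 0.00033), and the dNTP hydrolase Samhd1 rose by 0.49 (adjusted p = 0.013), all on the log2 scale.

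Among the regulators upstream of the members, 3 of 11 E2F, DP and pocket proteins fell and 1 rose. Tfdp2 and Tfdp1, the DP partners of E2F1, had log2 fold changes of -0.48 (adjusted p = 0.010) and -0.44 (adjusted p = 0.015), and Rb1, which restrains E2F1, one of 0.34 (adjusted p = 0.00027). Of 9 G1 cyclins, kinases and phosphatases 2 fell and 4 rose: Ccna2, the cyclin of S phase and G2, had a log2 fold change of -1.22 (adjusted p = 0.00051), Myc of -0.45 (adjusted p = 0.016), Ccnd1 of 1.07 (adjusted p = 0.0070) and Cdk6 of 0.59 (adjusted p = 0.00021). Of 7 CDK inhibitors 2 fell and 1 rose, with Cdkn2c at -0.65 (adjusted p = 0.0041), Cdkn1b at -0.45 (adjusted p = 0.027) and Cdkn1a, which encodes p21, at 0.98 (adjusted p = 0.00025).

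Of 16 markers of mitosis, the phase in which the copied genome is divided, 15 fell and none rose, with a median log2 fold change of -0.89. Ccnb2 lay between 30.1 and 66.6 FPKM in CTR and between 13.0 and 16.5 FPKM in dKO (-1.61 ± 0.16, adjusted p = 6.1e-06), and Cdc20 had a log2 fold change of -1.26 ± 0.20 (adjusted p = 0.00025). Mki67, the 1 that did not pass, had a log2 fold change of -0.59 ± 0.24 (adjusted p = 0.055). Summed over a list, mitotic markers gave 148 to 437 FPKM in CTR and 100.1 to 144 FPKM in dKO, without overlap, whereas the 51 members gave 259 to 662 FPKM in CTR and 286 to 442 FPKM in dKO, with every dKO library inside the CTR range. The difference between the lists was not tested.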

How the data were processed

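Per the study's methods, the authors used FastQC for read quality and Trimmomatic for trimming, then STAR on mm39 and sambamba to keep unique alignments, which were aligned again; the counting program, annotation and strand setting are not given in the sources used here. The titles and tissue labels name lung cells, but the labels' extract protocol names retinas and a TruSeq kit where the methods name MLECs and a NEBNext kit; 7 retina markers summed to 0.0646 to 0.529 FPKM. The authors deposited FPKM values. Knockout columns, named after tamoxifen, were matched to dKO by elimination and by replicate number.

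Symbols and positions came from GENCODE (27706 of 28689 identifiers matched). log2(FPKM + 1) was tested with limma 3.58.1 in R 4.3.3 (lmFit, eBayes with trend, no covariates, Benjamini-Hochberg over 12467 genes); SE and intervals are from that fit. Fragments were recovered as whole numbers (tolerance 0.02), for depth and voom only. No library repeated another (chi-square per degree of freedom at least 12.2). Steps were tested on simulated data drawn with equal spread in both groups, the same dispersion for every gene and few genes changed. The wide spread of the members, its inequality between the groups and the large share of genes called were not simulated. The simulation therefore does not show how the test performs on genes like the members.

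The members and lists were chosen with earlier results of these data known. By rule, each role gives in full the called gene with the largest change and the gene with the smallest, plus called genes against the majority and genes under the filter; others were chosen after their values were seen. The alternatives were another pseudocount, filters, TPM, median-of-ratios scaling, limma-voom, a replicate block and leaving out each library.

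Near-identical copies elsewhere exist for 7 members (Cdc6, Mcm7, Pcna, Rfc5, Rrm2, Tyms and Uhrf1), so their levels are uncertain to that extent.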

Additional observations from a re-analysis of the deposited data

Results flagged for a closer look

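In 8 of the 102 groups of 6 values looked at (51 genes in CTR and in dKO), 1 library lay far from the other 5 by Dixon's test at the 95% level, where chance gives about 5.1. In dKO 1, Orc4 was at 6.79 FPKM (the other dKO libraries 4.82 to 5.41), Orc6 at 13.6 FPKM (7.24 to 9.34), Rfc3 at 4.23 FPKM (1.84 to 2.72), Rrm2 at 31.5 FPKM (12.7 to 19.3), Ccne1 at 8.69 FPKM (5.42 to 6.08) and Ccne2 at 4.20 FPKM (2.33 to 2.76). Fen1, at few fragments, was at 0.612 FPKM in dKO 1 (0.0472 to 0.211). In CTR 1, Ccne2 was at 4.5 FPKM (0.983 to 2.28). So 7 of the 8 lay in dKO 1 and 1 in CTR 1, the libraries in which most members were highest.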

How the results depend on the processing

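Under the 7 planned settings and without each of the 12 libraries in turn, E2f1, Gins4, Orc5, Pold1, Pold2 and Rpa3 passed the test wherever they were tested and no gene that had passed turned its sign. The number of members that changed was 11, and 8 to 17 without single libraries, where the share of all genes is not given here. Of these members 10 were lower (7 to 16) and 1 higher (1 to 2, the second being Ccne2 without CTR 1). The median log2 fold change of the members stayed below 0 throughout. Read as 1.5-fold, a setting chosen after seeing the data, the fold threshold was passed by 3 members in place of 0. With the replicate number as a block, 19 of the 49 members changed, 17 lower and 2 higher, beside 6955 of the 12467 genes tested. The 8 added were Orc2, Orc6, Mcm2, Mcm6, Gins1, Prim1, Pole and Ccne2, among them Mcm6 with an adjusted p of 0.0015 and Mcm2 with 0.013. The numbers were not taken to pair the libraries: deviations of same-numbered libraries correlated between -0.108 and 0.565, and 2 of the 6 CTR libraries correlated best with their own number.

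Signs turned only in 15 genes that had not passed. With limma-voom the log2 fold change was 0.074 for Cdc6, 0.0064 for Gins3, 0.012 for Pola2 and 0.032 for Rpa2, with median-of-ratios scaling 0.022 for Cdc6, 0.011 for Pola2 and 0.016 for Rpa2, and rescaled to TPM -0.037 for Mcm7. Without single libraries the range was -0.15 to 0.11 for Cdc6, -0.20 to 0.058 for Gmnn, -0.30 to 0.023 for Mcm4, -0.28 to 0.042 for Mcm10, -0.13 to 0.022 for Gins3, -0.12 to 0.0070 for Pola2, -0.17 to 0.021 for Prim2, -0.35 to 0.012 for Lig1, -0.15 to 0.10 for Rpa2, -0.12 to 0.18 for Mcm7, -0.039 to 0.24 for Gins2, -0.016 to 0.21 for Pcna, -0.0032 to 0.15 for Rfc2, -0.043 to 0.13 for E2f2 and -0.0093 to 0.23 for Rfc3. The cause was not tested. Orc1 and Fen1 rest on few fragments, 24 to 86 and 2 to 23 in a library.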
